A study of Mus musculus with 6 samples.

Results

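The 45 genes described here encode the core machinery of macroautophagy and its cargo receptors. They were listed by their known role in initiation, nucleation, membrane supply, conjugation, cargo binding, mitophagy or fusion. The list was drawn up with earlier results of these data known, so its counts are a description and not independent evidence of a direction. On the array 44 of the 45 were measured, out of 19937 named genes. The gene not measured by a probe set with a single symbol was Optn, which encodes the cargo receptor optineurin. Where a gene had more than 1 probe set, the one with the highest average of all 6 arrays was kept.

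All 6 samples were cells of A316, a mouse primary adenocarcinoma line with a knock-out of C/EBP alpha, a transcription factor encoded by Cebpa, and each was read on 1 Affymetrix array. On 3 arrays the cells had been given 0.5% DMSO, the vehicle, and on 3 they had been given PTC-209, which the labels describe as an inhibitor of Bmi, in the same 0.5% DMSO. The title of the series places the comparison in a study of inhibiting Bmi1, a Polycomb protein, in lung adenocarcinomas with little C/EBP alpha. The sources used here state neither dose nor exposure time, and no group was left without DMSO. A316 is 1 line, so the comparison describes that line. Whether the 3 samples of a group were separate cultures is not stated, and the p-values therefore reflect the spread among these samples alone, which may be technical.

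Macroautophagy encloses cytoplasm in a double membrane, the autophagosome, which then fuses with the lysosome. The ULK kinase complex starts the process, a lipid kinase complex around PIK3C3 and beclin 1 marks the membrane, ATG2, ATG9 and WIPI proteins supply and bind lipid, and a pair of ubiquitin-like conjugation systems couples LC3 and GABARAP proteins to the growing membrane. Cargo receptors bind ubiquitinated or damaged material on one side and LC3 or GABARAP on the other, and receptors on the outer mitochondrial membrane do the same for mitochondria. Several of these genes are known targets of the transcription factors TFEB, TFE3, FOXO3, ATF4 and NRF2. An array reads mRNA, so the values below do not measure autophagic flux or protein.

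Levels are the deposited log2 expression values, given per array in the order replicate 1, 2, 3, and a difference is PTC-209 minus DMSO on the log2 scale. The words rose and fell are kept for genes with an adjusted p under 0.05, by limma with Benjamini-Hochberg adjustment over all 28192 tested probe sets. Levels of different genes come from different probes and are not compared with each other. Across probe sets, arrays of one group correlated at 0.9924 to 0.9958 and arrays of different groups at 0.9704 to 0.974, and 3 arrays per group limit the precision. Because the cells were read in bulk, fewer expressing cells and less RNA per cell cannot be told apart.

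Of the 44 measured genes 22 rose, 2 fell and 20 did not pass the threshold. Among all named genes 12.9% rose and 13.7% fell, 26.6% in all. Except for Atg14 in DMSO, the measured members lay above the median level of all tested probe sets in both groups. The shares of all named genes here and below include dim probe sets. They were not computed for genes of like level, so part of a gap from them may reflect brightness, which was not tested. The median difference was 0.32 over the autophagy genes and 0.03 over all named genes. Of the 22 rises 7 were at least 2-fold (Sqstm1, Nbr1, Calcoco1, Bnip3, Tecpr1, Gabarapl1 and Atg12), 9 lay between 0.5 and 1 and 6 below 0.5, while 2.23% of all named genes rose at least 2-fold. The genes that fell were Rb1cc1 and Pik3c3. In 28 genes every PTC-209 array lay above every DMSO array and in 3 every one lay below, 31 in all. The shares among all named genes were 21.1% and 19.4%, or 40.5% in either direction. Of the 24 genes past the threshold 18 passed whichever array was left out, and the genes that did not are named with their steps below. The count of rises lay between 17 and 23 when each array was left out in turn. Without DMSO replicate 3, PTC-209 replicate 1 or PTC-209 replicate 3, 1 gene fell. Against a minimum fold change of 1.2, 11 genes rose and 1 gene, Rb1cc1, fell. That setting ended the calls of Ulk1, Becn1, Pik3c3, Atg14, Wipi1, Atg4c, Atg7, Atg16l1, Map1lc3a, Map1lc3b, Gabarapl2 and Plekhm1.

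**Figure D1:**
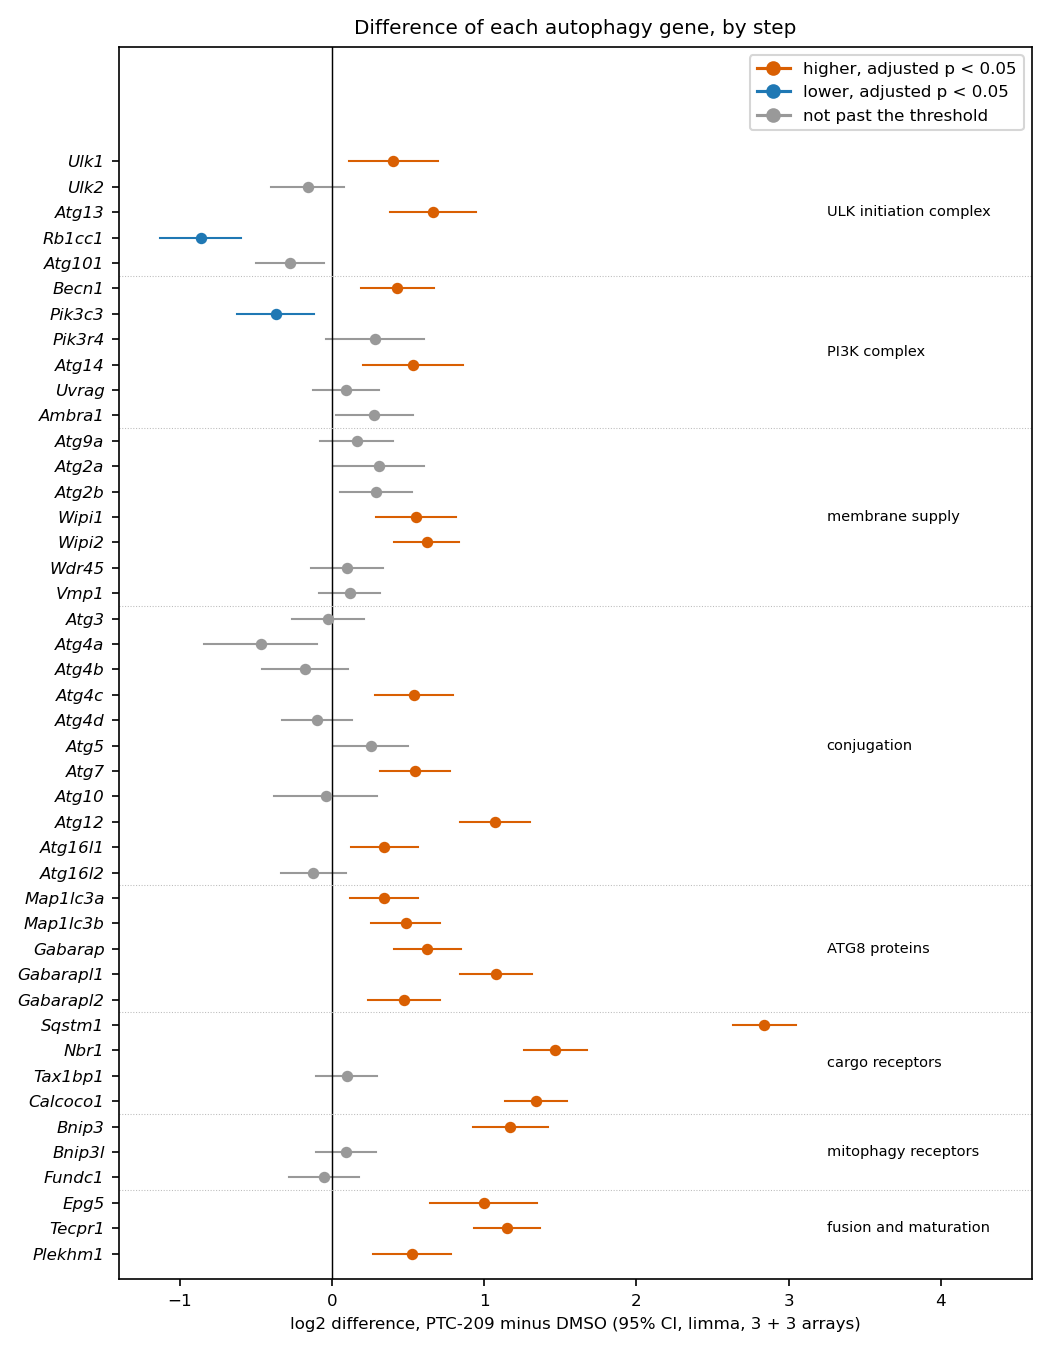
Log2 difference (PTC-209 minus DMSO, x axis) of each of the 44 measured autophagy genes, grouped by step, with the 95% confidence interval of the limma fit on 3 arrays per group. Orange marks the 22 genes that rose, blue the 2 that fell and grey the 20 that did not pass the threshold, and Sqstm1 stands farthest to the right at 2.84.

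The cargo receptors held the largest difference. Of the 4 measured, Sqstm1, Nbr1 and Calcoco1 rose and Tax1bp1 did not pass the threshold, with a median difference of 1.40. Sqstm1 encodes p62, which binds ubiquitinated cargo and the NRF2 inhibitor KEAP1. It read 8.40, 8.40 and 8.27 in DMSO and 11.22, 11.22 and 11.15 with PTC-209. The groups lay far apart, and the difference of 2.84 (95% confidence interval 2.63 to 3.05, SE 0.0922, limma adjusted p = 2.51e-07) corresponds to a 7.16-fold higher level. Nbr1, a receptor that works beside p62, read 7.22, 7.10 and 7.06 in DMSO and 8.60, 8.59 and 8.59 with PTC-209. Its level was 2.76-fold higher (difference 1.47, interval 1.26 to 1.67, limma adjusted p = 3.86e-06), and its treated arrays differed by less than those of DMSO. Calcoco1, a receptor for portions of the endoplasmic reticulum and Golgi, read 6.51, 6.41 and 6.36 in DMSO and 7.74, 7.78 and 7.77 with PTC-209. It was 2.53-fold higher (difference 1.34, interval 1.13 to 1.55, limma adjusted p = 6.42e-06), again without overlap.

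Tax1bp1, a ubiquitin-binding receptor, read 9.46, 9.41 and 9.38 in DMSO and 9.53, 9.50 and 9.50 with PTC-209. The treated arrays all lay above the DMSO arrays, but by little: the difference was 0.09 (interval -0.10 to 0.29, limma adjusted p = 0.533). The upper end of that interval lies below the lower end of the interval of each of the other 3 receptors.

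Among the mitophagy receptors Bnip3 rose and Bnip3l and Fundc1 did not pass the threshold. Bnip3, an outer-membrane protein that recruits LC3 to mitochondria and is known as a hypoxia target, read 8.18, 8.36 and 8.03 in DMSO and 9.38, 9.28 and 9.43 with PTC-209. It was 2.25-fold higher (difference 1.17, interval 0.92 to 1.42, SE 0.111, limma adjusted p = 5.09e-05). Its paralogue Bnip3l, or NIX, which clears mitochondria from maturing red cells, read 10.36, 10.38 and 10.31 in DMSO and 10.46, 10.42 and 10.45 with PTC-209. That is a difference of 0.09 (interval -0.11 to 0.29, limma adjusted p = 0.547), with treated arrays above DMSO by less than in Bnip3. Its sign turned after cyclic loess normalization, at -0.00765. Fundc1, a hypoxia-regulated mitophagy receptor, read 8.47, 8.38 and 8.56 in DMSO and 8.51, 8.29 and 8.45 with PTC-209, groups that overlap (difference -0.05, interval -0.28 to 0.18, limma adjusted p = 0.798).

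The ATG8 proteins, which are coupled to the autophagosome membrane and hold the receptors there, rose in all 5 measured genes by the kept probe sets, with a median difference of 0.48. Gabarapl1 read 6.56, 6.58 and 6.31 in DMSO and 7.53, 7.63 and 7.53 with PTC-209. It was 2.11-fold higher (difference 1.08, interval 0.84 to 1.31, SE 0.105, limma adjusted p = 6.12e-05), and no array of the groups overlapped. Gabarap read 10.003, 10.19 and 10.01 in DMSO and 10.65, 10.76 and 10.66 with PTC-209 (difference 0.63, interval 0.41 to 0.84, limma adjusted p = 0.00115). Gabarapl2, also known as GATE-16, read 7.99, 8.17 and 8.15 in DMSO and 8.64, 8.43 and 8.66 with PTC-209 (difference 0.47, limma adjusted p = 0.00849). The kept probe set of Gabarapl2 is one of those whose place on the array is uncertain, and its other probe set gave a difference of 0.05 that did not pass (limma adjusted p = 0.794), nor did the mean of both (0.26, limma adjusted p = 0.0757).

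By the kept probe sets, the differences of the LC3 genes were under 0.5. Map1lc3b, the LC3 form most used as an autophagosome marker, read 10.10, 10.01 and 9.92 in DMSO and 10.46, 10.41 and 10.62 with PTC-209. The groups did not overlap (difference 0.48, interval 0.26 to 0.71, SE 0.101, limma adjusted p = 0.00634). Map1lc3a read 5.71, 5.63 and 5.59 in DMSO and 5.97, 5.88 and 6.11 with PTC-209 (difference 0.34, interval 0.12 to 0.57, limma adjusted p = 0.0319). The call of Map1lc3a was lost without DMSO replicate 2 (limma adjusted p = 0.0869) or 3 (0.103) and without PTC-209 replicate 1 (0.0718) or 3 (0.113), and with the control block kept (0.054). The second probe set of Map1lc3b differed by 1.07 (interval 0.75 to 1.40), close to Gabarapl1, and the mean of its probe sets by 0.78, so no order of the LC3 and GABARAP genes is read from these values.

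**Figure D2:**
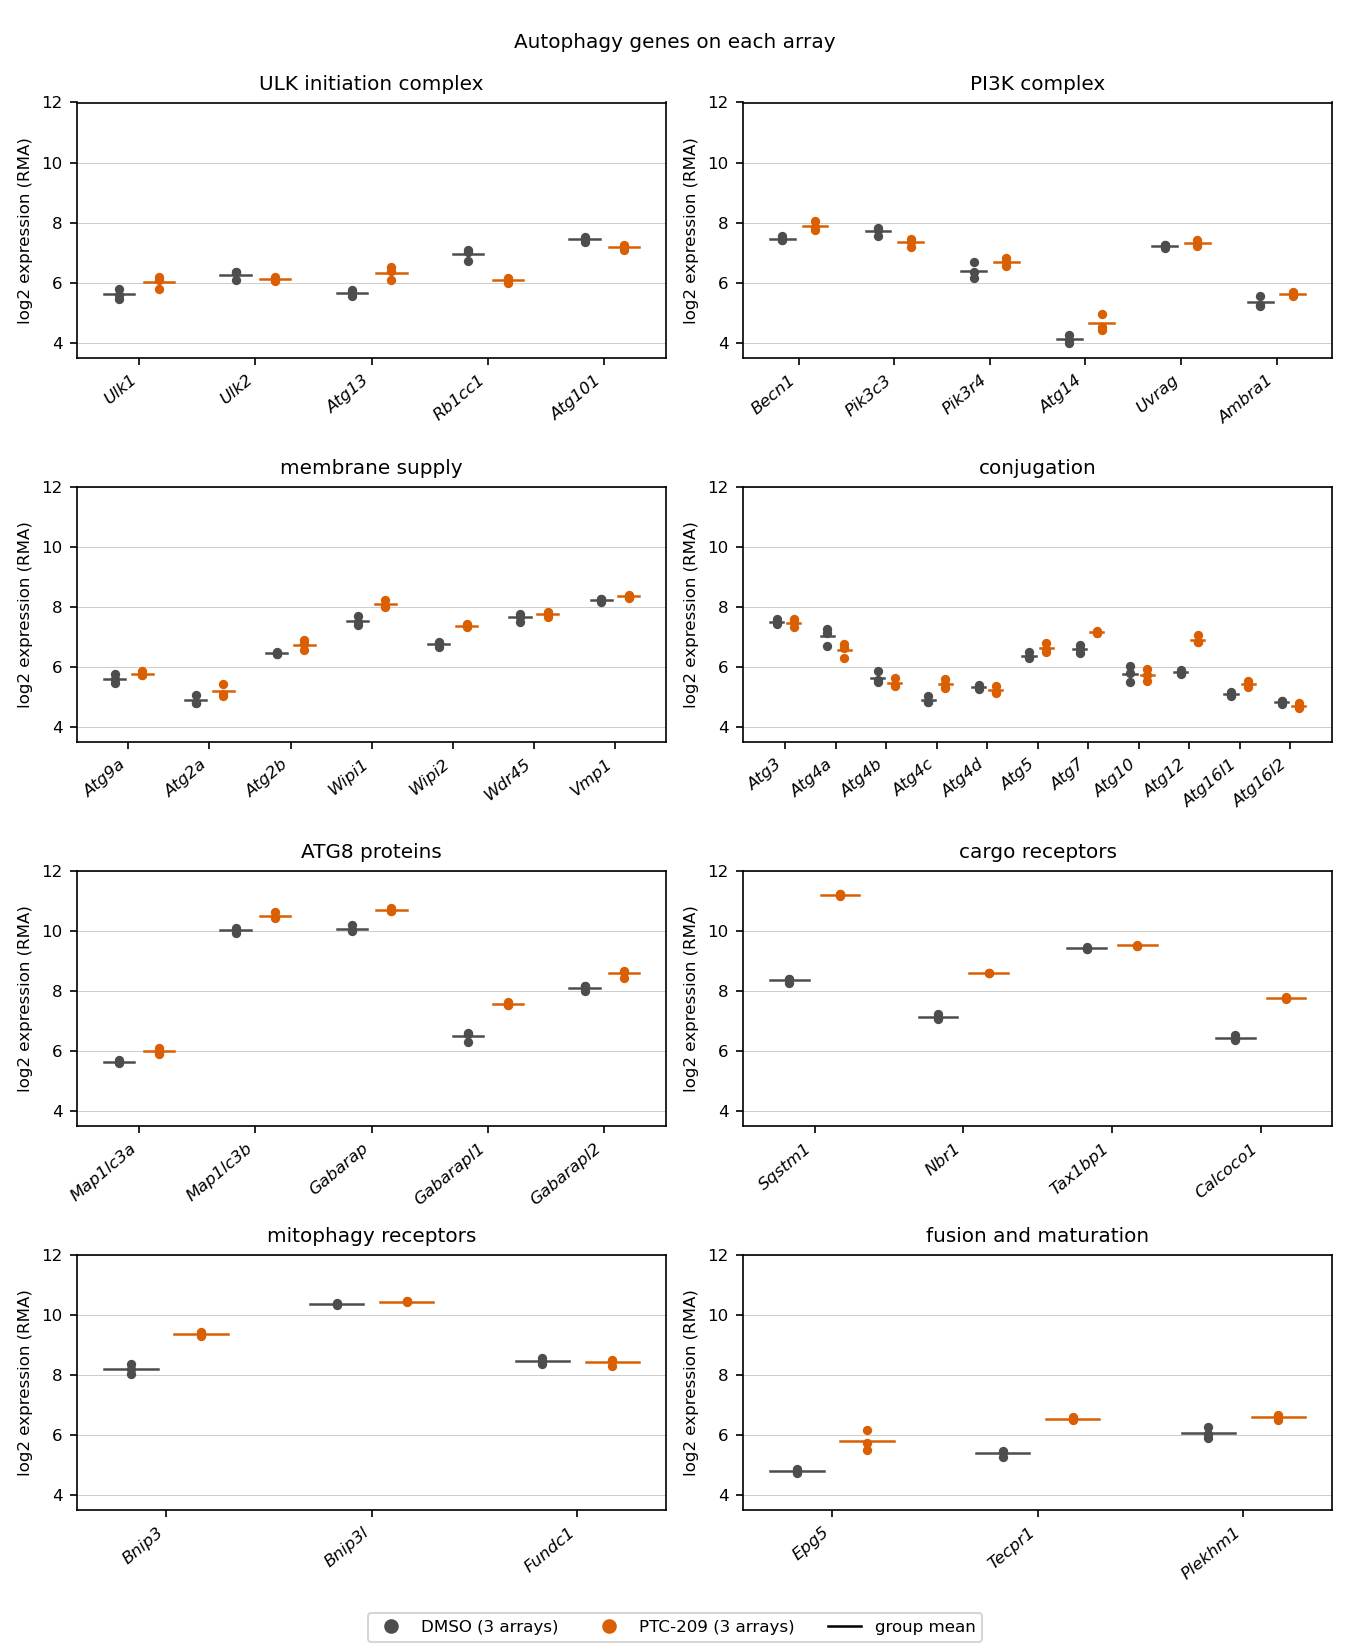
Deposited log2 expression (y axis) of the 44 measured autophagy genes on each array, 1 panel per step, with DMSO arrays in grey, PTC-209 arrays in orange and a line at each group mean. The treated arrays of Sqstm1 sit between 11.15 and 11.22, above DMSO arrays between 8.27 and 8.40, while those of Rb1cc1 lie below their DMSO arrays.

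Genes of the conjugation machinery differed among themselves: 4 of 11 rose, 0 fell and 7 did not pass, with a median difference of -0.03. The 4 were Atg12, Atg7, Atg4c and Atg16l1. Atg12 encodes the ubiquitin-like protein that is joined to ATG5. It read 5.82, 5.89 and 5.76 in DMSO and 6.81, 6.83 and 7.04 with PTC-209. It was 2.10-fold higher (difference 1.07, interval 0.84 to 1.30, SE 0.102, limma adjusted p = 5.29e-05), with no overlap. Atg7, the E1-like enzyme that activates both ATG12 and the ATG8 proteins, read 6.61, 6.74 and 6.46 in DMSO and 7.13, 7.13 and 7.19 with PTC-209. Its difference was 0.55 (interval 0.32 to 0.77, limma adjusted p = 0.00331). Atg16l1, which places the ATG12-ATG5 conjugate on the membrane, read 5.16, 5.05 and 5.03 in DMSO and 5.52, 5.42 and 5.33 with PTC-209. Its difference of 0.34 (limma adjusted p = 0.0293) was no longer called without DMSO replicate 2 (limma adjusted p = 0.0897) or 3 (0.0944) or PTC-209 replicate 1 (0.101) or 2 (0.0831). Its paralogue Atg16l2 read 4.86, 4.76 and 4.86 in DMSO and 4.69, 4.63 and 4.80 with PTC-209, groups that overlap (difference -0.12, interval -0.34 to 0.09, limma adjusted p = 0.432).

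The ATG4 proteases, which cut ATG8 proteins before coupling and release them afterwards, held genes on both sides of 0. Atg4c read 5.03, 4.82 and 4.82 in DMSO and 5.59, 5.41 and 5.28 with PTC-209. It rose, by 0.54 (interval 0.28 to 0.80, limma adjusted p = 0.00658), and its groups did not overlap. Atg4a read 6.70, 7.14 and 7.24 in DMSO and 6.74, 6.62 and 6.30 with PTC-209. The first replicates of the groups overlap, and its difference of -0.47 (interval -0.84 to -0.10) did not pass (limma adjusted p = 0.0713), although it passed without DMSO replicate 1 (difference -0.63, limma adjusted p = 0.0134). Atg4a was also called lower with a trended robust prior (limma adjusted p = 0.0486), without dim probe sets (0.0399) and with array weights (0.0157). Atg4b read 5.85, 5.48 and 5.56 in DMSO and 5.61, 5.38 and 5.35 with PTC-209 (difference -0.18, limma adjusted p = 0.383). Atg4d read 5.38, 5.32 and 5.26 in DMSO and 5.37, 5.18 and 5.12 with PTC-209 (difference -0.10, limma adjusted p = 0.581). The groups of both overlap. Of the other conjugation enzymes, Atg5 differed by 0.25 (limma adjusted p = 0.139), the E2-like Atg3 by -0.03 and the E2-like Atg10 by -0.04, and none passed. Atg5 was called higher after quantile normalization again (limma adjusted p = 0.0385).

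The ULK complex changed in opposite directions. Atg13, its phosphorylated adaptor, read 5.74, 5.57 and 5.71 in DMSO and 6.52, 6.40 and 6.09 with PTC-209. It rose 1.58-fold (difference 0.66, interval 0.38 to 0.95, SE 0.126, limma adjusted p = 0.00372). Rb1cc1, or FIP200, the scaffold of the complex, read 7.08, 6.73 and 7.04 in DMSO and 6.13, 5.98 and 6.15 with PTC-209. Its level was 1.82-fold lower, the largest fall among these genes (difference -0.86, interval -1.13 to -0.60, SE 0.118, limma adjusted p = 0.000498), and its call held under all 16 alternatives run. The kinase gene Ulk1 read 5.78, 5.60 and 5.47 in DMSO and 6.18, 6.07 and 5.80 with PTC-209, with PTC-209 replicate 3 only just above DMSO replicate 1. Its difference of 0.40 passed narrowly (interval 0.11 to 0.69, limma adjusted p = 0.04997). The Ulk1 call was lost without DMSO replicate 2 (limma adjusted p = 0.12) or 3 (0.162) or PTC-209 replicate 1 (0.16) or 2 (0.146), after median centring (0.0712) and with the control block kept (0.0958). Its paralogue Ulk2 read 6.37, 6.35 and 6.10 in DMSO and 6.09, 6.05 and 6.18 with PTC-209, with overlap (difference -0.16, limma adjusted p = 0.354). Atg101, the partner of ATG13, differed by -0.28 (interval -0.50 to -0.06) and did not pass (limma adjusted p = 0.0736), though its groups did not overlap. It was called lower after cyclic loess (limma adjusted p = 0.0228) and without dim probe sets (0.0363).

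In the lipid kinase complex 2 of 6 genes rose, Becn1 and Atg14, 1 fell, Pik3c3, and 3 did not pass. Atg14 directs the complex to the site where autophagosomes form. It read 4.09, 4.25 and 4.003 in DMSO, under the median of 4.33 over all tested probe sets, and 4.44, 4.53 and 4.97 with PTC-209, and no fold is given for so dim a probe set (difference 0.53, interval 0.20 to 0.86, limma adjusted p = 0.0254). Its call was lost without DMSO replicate 1 (limma adjusted p = 0.064) or 3 (0.0863) or PTC-209 replicate 3 (0.0639), and with the control block kept (0.0613). Becn1, beclin 1, read 7.55, 7.42 and 7.43 in DMSO and 8.06, 7.76 and 7.87 with PTC-209, without overlap (difference 0.43, interval 0.19 to 0.67, limma adjusted p = 0.0156). Without DMSO replicate 2 (limma adjusted p = 0.0563) or 3 (0.0542) or PTC-209 replicate 1 (0.0574) it did not pass. Pik3c3, the catalytic subunit VPS34, read 7.75, 7.57 and 7.82 in DMSO and 7.35, 7.47 and 7.20 with PTC-209 (difference -0.37, interval -0.62 to -0.12, limma adjusted p = 0.0384). Its call was lost without DMSO replicate 1 (limma adjusted p = 0.0847) or 3 (0.13) or PTC-209 replicate 1 (0.0874) or 3 (0.133), with the replicate number as a block (0.0582) and with the control block kept (0.0708). Of the genes not past the threshold, Pik3r4, the VPS15 subunit, differed by 0.28 (limma adjusted p = 0.217), Ambra1, a regulator of beclin 1, by 0.28 (0.113) and Uvrag, the subunit of the endosomal form, by 0.09 (0.59). Without DMSO replicate 1, Pik3r4 (difference 0.43, limma adjusted p = 0.0356) and Ambra1 (difference 0.38, limma adjusted p = 0.024) passed. Ambra1 also passed after quantile normalization again (limma adjusted p = 0.0296) and with array weights (0.0312).

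All 7 genes of membrane supply were higher in mean with PTC-209, but only Wipi1 and Wipi2, which bind the lipid made by PIK3C3, passed the threshold. Wipi2, which brings ATG16L1 to the membrane, read 6.81, 6.79 and 6.64 in DMSO and 7.43, 7.33 and 7.35 with PTC-209 (difference 0.62, interval 0.41 to 0.83, limma adjusted p = 0.00102). Wipi1 read 7.70, 7.39 and 7.50 in DMSO and 8.23, 8.03 and 7.98 with PTC-209 (difference 0.55, interval 0.29 to 0.81, limma adjusted p = 0.00683). The groups of both were apart on every array. The other 5 lay between 0.10 and 0.31. They were the lipid scramblase genes Atg9a (0.16) and Vmp1 (0.11), the lipid transfer genes Atg2a (0.31, limma adjusted p = 0.142) and Atg2b (0.29, limma adjusted p = 0.0817), and Wdr45 (0.10), which belongs to the WIPI family. Atg2b passed without PTC-209 replicate 3 (difference 0.37, limma adjusted p = 0.0394), without dim probe sets (0.0417) and after quantile normalization again (0.0325). Atg2a passed with the replicate number as a block (limma adjusted p = 0.0474).

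All 3 genes of fusion and maturation rose. Tecpr1, which binds the ATG12-ATG5 conjugate and lysosomal membranes, read 5.43, 5.28 and 5.47 in DMSO and 6.60, 6.53 and 6.49 with PTC-209. It was 2.21-fold higher (difference 1.15, interval 0.93 to 1.36, SE 0.0963, limma adjusted p = 2.46e-05), with the groups far apart. Epg5, a tether of autophagosomes to late endosomes and lysosomes, read 4.74, 4.88 and 4.80 in DMSO and 6.17, 5.73 and 5.51 with PTC-209. Its treated arrays spread the most of all 44 genes (SD 0.34, n = 3), and PTC-209 replicate 1 was the highest, yet every treated array lay above DMSO (difference 0.996, interval 0.64 to 1.35, limma adjusted p = 0.00121). Plekhm1, an adaptor that links RAB7 and the HOPS tether to ATG8 proteins, read 6.26, 5.91 and 6.02 in DMSO and 6.66, 6.60 and 6.50 with PTC-209 (difference 0.52, interval 0.27 to 0.78, limma adjusted p = 0.00761).

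For 6 of the genes the array carries a pair of probe sets with that single symbol, and for 3 of them the rule kept a set whose place is uncertain. Identifiers on this array run along the chromosomes: for all 38 members with 1 probe set, at least 10 of the 20 nearest named probe sets by identifier belong to genes on the same chromosome in the RefSeq table (GRCm38.p6). The kept sets of Bnip3, Gabarapl2 and Atg4a had 0 of 20 such neighbours, while their other sets had 20 of 20. Whether the kept sets read near-identical copies elsewhere in the genome was not tested, and the levels of these 3 genes are uncertain. For Bnip3 the choice made little difference, since the other set read 7.72, 7.65 and 7.66 in DMSO and 8.78, 8.68 and 8.70 with PTC-209 (difference 1.05, limma adjusted p = 2.72e-05). The other set of Atg4a read 6.66, 6.87 and 6.81 in DMSO and 6.31, 5.81 and 6.29 with PTC-209, without overlap, and fell (difference -0.65, interval -0.97 to -0.32, limma adjusted p = 0.00906). The mean of both sets of Atg4a fell as well (difference -0.56, limma adjusted p = 0.0102). For Gabarapl2 the other set read 5.17, 5.19 and 5.16 in DMSO and 5.13, 5.21 and 5.33 with PTC-209, overlapping groups with a difference of 0.05 (interval -0.16 to 0.26). With the sets among identifiers of the gene's own chromosome, 21 of 44 genes rose and 3 fell.

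The other 3 pairs kept a set with 19 or 20 of 20 neighbours on the gene's chromosome. The second set of Map1lc3b, with 0 of 20, read 7.92, 8.38 and 8.40 in DMSO and 9.16, 9.31 and 9.45 with PTC-209 (difference 1.07, limma adjusted p = 0.000469), a larger difference in the same direction. The second set of Bnip3l, also with 0 of 20, read 7.91, 9.22 and 8.71 in DMSO and 8.99, 9.51 and 9.77 with PTC-209. Those groups overlap and spread widely, and the difference of 0.81 did not pass (limma adjusted p = 0.0896), nor did the mean of its sets (0.45, limma adjusted p = 0.0883). The second set of Atg2b, with 20 of 20, rose by 0.38 (limma adjusted p = 0.0357), while the kept set did not pass. The mean of both sets of Atg2b rose by 0.33 (limma adjusted p = 0.0488).

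**Figure D3:**
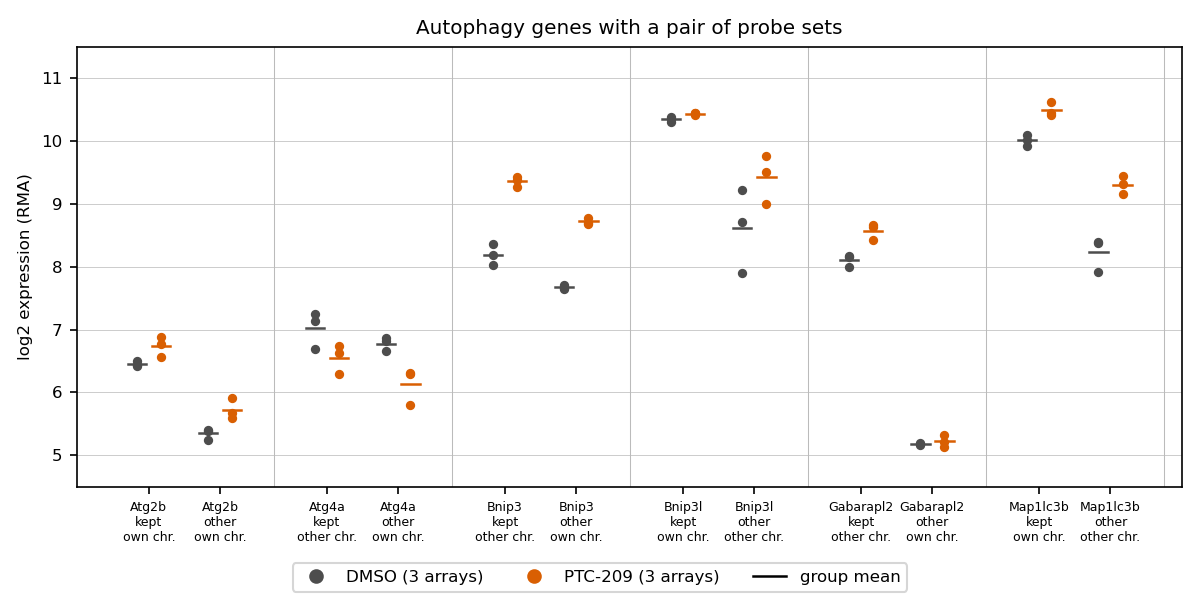
Deposited log2 expression (y axis) on each array for the 6 autophagy genes with a pair of probe sets, the kept set left and the other right of each pair, DMSO in grey and PTC-209 in orange with lines at group means. "Own chr." marks a set whose identifier lies among those of genes on its own chromosome: both sets of Bnip3 lie higher with PTC-209, while for Gabarapl2 the own-chromosome set differs by 0.05, and levels of different sets are not comparable.

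The starts of these genes were examined because many moved together. The RefSeq table (GRCm38.p6) held 43 windows of 37 listed genes, each from 250 bases before to 50 after a start. The letters CACGTG, the E-box core that TFEB, TFE3, MYC and other factors read, stood in 5 of the 43 windows (11.6%) and in 7.15% of all 32851 windows of the table. Among genes that rose it stood in 3 of 19 windows, those of Atg7, Bnip3 and Atg14. Among the other measured members it stood in 2 of 23, those of Atg3 and Atg5. The window of Atg3, which did not pass, held it at -94 to -89 and again at -71 to -66. The 19 windows belong to 17 of the 22 genes that rose. The CLEAR element of TFEB, a longer palindrome that contains CACGTG, was in 0 of 43 (0.326% of all windows). The element TGATGNAAT, read by ATF4 with C/EBP partners, was in 0 of 43 (0.965% of all), and the core of the antioxidant response element, read by NRF2, in 1 of 43, that of Ulk2 (3.04% of all). Both strands were searched for each. GGGCGG, the GC box read by SP1 and searched after the values were seen, stood in 25 of 43 windows (58.1%) against 35.7% of all. It stood in 13 of 19 windows of genes that rose and in 11 of 23 of the other measured members. The median GC content of the 43 windows was 60.3% against 52.7% for all. The windows of the whole table belong to 27025 genes and were not limited to the 19937 named genes measured or to bright ones. They were not matched for GC content either. Whether the share of GGGCGG follows from GC content was not tested. These are letter matches in short windows, and a window without a match says nothing about binding elsewhere.

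Shown here are the 150 bases before the start of 6 genes that rose, 4 with some of the largest differences in their steps and 2, Bnip3 and Atg7, that hold CACGTG there. They run 5′ to 3′ on the gene's strand, with GGGCGG (or CCGCCC, the same on the other strand) and CACGTG in capitals. In GRCm38.p6 they lie at chr11:50210821-50210970, minus strand (Sqstm1), chr15:102722179-102722328, minus strand (Calcoco1), chr6:129533042-129533191, plus strand (Gabarapl1), chr5:144223616-144223765, minus strand (Tecpr1), chr7:138909507-138909656, minus strand (Bnip3) and chr6:114670946-114671095, plus strand (Atg7).
Sqstm1: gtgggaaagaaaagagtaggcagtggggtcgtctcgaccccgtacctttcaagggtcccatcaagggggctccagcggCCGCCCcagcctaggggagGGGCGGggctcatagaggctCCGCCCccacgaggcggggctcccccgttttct
Calcoco1: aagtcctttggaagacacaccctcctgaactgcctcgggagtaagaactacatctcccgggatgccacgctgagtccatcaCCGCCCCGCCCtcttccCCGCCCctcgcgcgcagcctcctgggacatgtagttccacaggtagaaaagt
Gabarapl1: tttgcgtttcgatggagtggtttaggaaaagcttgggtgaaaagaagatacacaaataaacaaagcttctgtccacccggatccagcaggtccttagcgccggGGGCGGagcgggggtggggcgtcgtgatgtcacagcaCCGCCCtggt
Tecpr1: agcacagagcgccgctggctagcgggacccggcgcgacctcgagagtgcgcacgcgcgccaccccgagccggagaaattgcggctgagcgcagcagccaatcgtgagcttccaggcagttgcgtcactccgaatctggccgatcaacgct
Bnip3: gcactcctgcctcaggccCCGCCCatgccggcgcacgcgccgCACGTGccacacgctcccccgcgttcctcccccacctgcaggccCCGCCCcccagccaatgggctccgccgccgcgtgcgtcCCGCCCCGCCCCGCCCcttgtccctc
Atg7: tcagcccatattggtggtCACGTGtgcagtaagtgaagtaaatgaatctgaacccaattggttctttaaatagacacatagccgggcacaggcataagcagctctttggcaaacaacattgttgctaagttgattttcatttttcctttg
The stretch of Sqstm1, the gene with the largest rise, holds 3 GC boxes and 0 CACGTG, that of Calcoco1 also 3, and that of Gabarapl1 2. The Tecpr1 stretch holds 0 of either. Nbr1, not shown, rose more than Calcoco1 and had its only match, a GGGCGG, downstream at 30 to 35 from the start. In Bnip3 the CACGTG lies at -108 to -103 from the start, among 5 GC boxes, of which the 3 nearest the start follow each other with a shared base at each join. In Atg7 it lies at -132 to -127, in a stretch with 0 GC boxes.

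Other genes of the pathway were taken from 3 further lists, to be read against the 12.9% of all named genes that rose and the 13.7% that fell. Among 31 other genes of autophagosome formation and fusion 14 rose and 4 fell, with a median difference of 0.26, and the share of falls is near that of all named genes. Trp53inp1, which binds LC3 and is a p53 target, read 8.21, 7.99 and 8.08 in DMSO and 9.71, 9.59 and 9.53 with PTC-209 (difference 1.52, limma adjusted p = 5.68e-06). C9orf72 (1.34) and Smcr8 (1.10), partners in a complex that acts on ULK1 and lysosomes, both rose. Wdr41, of the same complex, did not pass (difference -0.16, limma adjusted p = 0.364). Vps11 (1.15), a subunit of the HOPS tether, and Snap29 (0.84), a SNARE of autophagosome fusion, rose as well. So did the HOPS subunits Vps39 (0.65), Vps18 (0.48) and Vps33a (0.41). Vps41, another HOPS subunit, went the other way, from 7.73, 7.46 and 7.47 to 6.73, 6.47 and 6.27 (difference -1.07, limma adjusted p = 0.000318). Rab7, Vps16 (also of HOPS) and Stx17, the SNARE on autophagosomes, made up the remaining falls, at -0.45, -0.48 and -0.36.

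Of 24 further receptors and adaptors 8 rose and 3 fell, with a median difference of 0.11, and here too the falls are near the share of all named genes (13.7%). Tollip, a ubiquitin-binding adaptor, rose by 1.32, and Tex264, a receptor for endoplasmic reticulum, by 1.27 (limma adjusted p = 4.23e-05), from 6.03, 5.63 and 5.77 to 7.11, 7.03 and 7.09. Retreg1, also a receptor for endoplasmic reticulum, rose by 0.65 and Ncoa4, the receptor for ferritin, by 0.73. Stbd1, a glycogen receptor, went from a mean of 3.56, under the median of all probe sets, to 4.73. Nipsnap1, a mitochondrial protein that recruits receptors to damaged mitochondria, fell by 1.41 (limma adjusted p = 4.28e-06), and Wdfy3 (-0.57) and Hdac6 (-0.39) were the other falls.

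Among 28 upstream regulators 14 rose and 2 fell, where 12.9% and 13.7% of all named genes did, with a median difference of 0.40. The stress factors Trib3 (3.05), Ddit3 (2.25) and Atf4 (1.21) rose. So did Sesn2 (0.96), Tsc1 (0.96), Ddit4 (0.86) and Akt1s1 (0.74), which restrain mTORC1. Rheb (0.51), which activates mTORC1, and its subunit Mlst8 (0.44) rose too. Prkab2 (0.95), a subunit of AMPK, rose from a mean of 4.25, under the median of all probe sets, to 5.20. Of the factors that drive autophagy and lysosome genes, Foxo3 rose by 0.94, Tfe3 by 0.77, Foxo1 by 0.63 and Nfe2l2, which encodes NRF2, by 0.42. Tfeb read 4.78 and 4.91 in mean and did not pass (difference 0.13, limma adjusted p = 0.483). Mitf, under the median of all probe sets, did not pass either (difference 0.05). The falls were Keap1 (-0.71), which p62 binds, and Deptor (-0.43), an inhibitor of mTORC1, and 1 gene fell without DMSO replicate 1 or 3 or without PTC-209 replicate 2 or 3. All 18 genes the naming rule took from these lists (up to 6 of each) passed in the same direction under every alternative run. The rule took the largest called differences of these same arrays, which favours that outcome. It does not cover the other list genes named above.

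**Figure D4:**
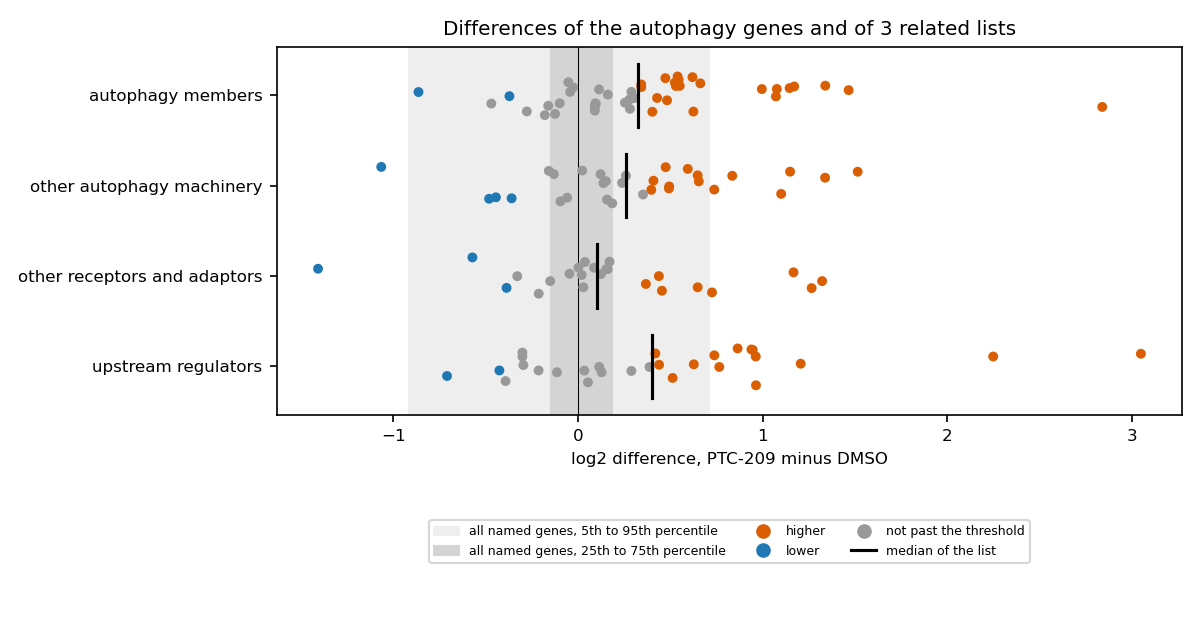
Log2 difference (PTC-209 minus DMSO, x axis) of the autophagy genes and of the 3 further lists, 1 point per gene with a small vertical jitter, orange for rises, blue for falls and grey for genes not past the threshold, with a black line at each list's median. Grey bands show the 25th to 75th (-0.14 to 0.19) and 5th to 95th (-0.91 to 0.71) percentiles of all 19937 named genes, and the medians of the autophagy genes (0.32), the other machinery (0.26) and the upstream regulators (0.40) lie above the inner band, that of the other receptors (0.11) within it.

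The label of the line was set against marker genes. All 7 epithelial markers (Epcam, Krt8, Krt18, Krt19, Cdh1, Cldn4 and Cldn7) lay above the median of all probe sets, and their summed level was 61.7 to 62.1 in DMSO and 59.0 to 59.8 with PTC-209. Within that sum the keratins Krt8 (-0.83), Krt18 (-1.04) and Krt19 (-0.99) fell, while Cdh1 (0.35) and Cldn4 (0.66) rose. Of 7 lung epithelial markers 6, Nkx2-1 and Sftpc included, lay under that median in both groups, with sums of 23.7 to 24.1 and 24.3 to 24.9. Of 6 leukocyte markers 4, Ptprc included, lay under it. The leukocyte sum was 23.4 to 23.8 in DMSO and 25.9 to 26.6 with PTC-209, and the marker that passed was Cd68, also a lysosomal membrane protein, at 2.61. The endothelial sum was 17.96 to 18.7 and 17.1 to 17.96, with 3 of 4 markers under the median. Cdh5 lay well above the median and fell by 1.33, from a mean of 9.48 to 8.15. The fibroblast sum was 21.6 to 22.3 and 22.1 to 23.1, with 3 of 6 under the median and 0 called. The part of these shifts in the autophagy values was not tested.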

How the data were processed

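The values analysed are log2 expression levels of 34760 probe sets on 6 arrays, as deposited. The authors made them with RMA, per the submitters' processing notes (version not stated there). RMA brings arrays towards a common distribution, which hides a change common to most genes. Over the tested probe sets the array medians still ran from 4.28 to 4.35. A sample description that speaks of embryo stages goes against the titles and was not used. A run of 6568 consecutive identifiers without listed genes, taken as control probes, was left out, and 28192 probe sets were tested. Of these 21640 had 1 symbol in the platform annotation, and 0 symbols needed an update against RefSeq (GRCm38.p6).

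Differences were tested with limma 3.58.1 in R 4.3.3 (treatment as the only term, 4 residual and 5.27 prior degrees of freedom, median residual SD 0.138, two-sided), adjusted over all probe sets at 0.05. The fit was tested on simulated data. Figures were drawn with matplotlib 3.10.9. The members and lists were chosen with earlier results of these data known. Array values are printed for members past the threshold with a difference of at least 0.5 and for their paralogues, and for other members where a result turned on them. From each further list the up to 6 largest called differences were named, and other list genes were named after their values were seen. Alternatives were a trended robust prior, dim probe sets left out, the replicate number as a block, array weights, median centring, cyclic loess, quantile normalization again, a fold change above 1.2, the mean of a gene's probe sets, the control block kept and each array left out. The second probe set and the probe set among those of the gene's own chromosome were added after seeing the data.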

Additional observations from a re-analysis of the deposited data

How the results depend on the processing

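Of the 24 calls, 12 held under every alternative run: Sqstm1, Nbr1, Calcoco1, Bnip3, Tecpr1, Epg5, Gabarapl1, Gabarap, Atg12, Atg13, Wipi2 and Rb1cc1. Rises numbered 11 above a fold change of 1.2, 19 with the control block kept, 25 after quantile normalization again and 17 to 23 with an array left out. Falls numbered 4 without dim probe sets and 1 with the replicate block, above a fold change of 1.2 or with the control block kept, and 1 to 2 with an array left out. Above a fold change of 1.2, other autophagy machinery had 8 rises and 1 fall (12 to 15 and 3 to 4 with an array left out), and other receptors and adaptors 5 rises and 1 fall (7 to 8 and 2 to 3). The upstream regulators had 4 falls without dim probe sets or after cyclic loess, 1 fall above a fold change of 1.2 or with the control block kept, and 13 to 16 rises and 1 to 3 falls with an array left out. Signs turned for genes that did not pass: Atg3 (-0.0848 to 0.0461 with an array left out), Atg10 (0.0312 after quantile normalization again, 0.0344 with array weights and -0.175 to 0.0866 with an array left out), Bnip3l (-0.00765 after cyclic loess) and Fundc1 (-0.0989 to 0.013 with an array left out). The cause was not tested. Array deviations of equal replicate number correlated at 0.231, 0.0703 and 0.0733, and those of unequal number at -0.163 to 0.105. The former were not all over 0.1, so the numbers were not taken as pairs, although 0.231 lies above every value of unequal number. Array medians also rose with replicate number in both groups: 4.28, 4.33 and 4.34 in DMSO and 4.29, 4.33 and 4.35 with PTC-209. Whether arrays of equal number were handled together was not tested. Over the autophagy genes, replicate 1 lay above its group mean in DMSO (0.0654) and with PTC-209 (0.0536). Whether these 2 arrays shared a batch was not tested. The replicate block gave 23 rises and 1 fall, ending the call of Pik3c3 (limma adjusted p = 0.0582). A probe set below the median of 4.33 lies near the background, which limits Atg14 and, of the further lists, Stbd1, Prkab2 and Mitf.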
